A study of Mus musculus with 6 samples.

Results

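The genes described here drive or record the segmentation of the vertebrate body axis. They are *Hes7*, *Lfng*, *Dll1*, *Dll3*, *Mesp1*, *Mesp2*, *Ripply2*, *Nrarp*, *Axin2* and *Dkk1*, 10 genes of the 24207 loci in the deposited table. Each was found by its symbol at a single locus, and together they lie on 7 chromosomes. The set was put together with its values in this same comparison already known, so every mutant and wildtype value below is a description, and none of them is a test. RNA came from 6 whole male mouse embryos at E9.5, 3 *Smchd1*+/+ (wildtype) and 3 *Smchd1*MommeD1/MommeD1 (mutant), with the genotype read from the yolk sac. MommeD1 is a nonsense allele of *Smchd1*, a chromatin regulator first known for its part in X inactivation, and was made by chemical mutagenesis. For both genotypes the labels give the background strain as C57Bl6/J x FVB/n. The text of the study gives that cross for its placenta samples and describes a backcross to a different strain for these embryos. The values do not settle which is right for these embryos. The allele is present in every cell of a mutant embryo, so its effects in the segmenting mesoderm and elsewhere in the embryo come together in these values.

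Somites, the blocks of mesoderm that later form vertebrae, ribs and trunk muscle, bud off in pairs from the front of the presomitic mesoderm while the tail bud adds cells at the back. In the presomitic mesoderm a segmentation clock turns genes of the Notch, Wnt and FGF pathways on and off in each cycle of somite formation. Hes7 is the repressor at the core of the clock, Lfng modifies Notch in rhythm with it, Nrarp damps Notch signaling, and Axin2 and Dkk1 are feedback inhibitors of Wnt signaling. At the front of the presomitic mesoderm Mesp2 sets where the next boundary will form, and Ripply2 then shuts the Mesp2 program down. At E9.5 this tissue is a small part of a whole embryo, and several of the clock genes are also used outside it, *Dll1*, *Dll3* and *Nrarp* for example in the nervous system.

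The table gives FPKM, a level scaled by transcript length and by the number of mapped fragments, as 1 value for each genotype pooled over its 3 embryos. Its columns are headed M and P, read here as MommeD1 and plus. No value per embryo was used, so no spread between embryos, no error and no p-value can be given, and the depth of the libraries is unknown. The log2 ratio used throughout is mutant over wildtype after adding 0.1 FPKM to each level, which pulls the ratio of a weakly expressed gene toward 0. As a check of the labels, *Smchd1* itself was at 2.12 FPKM in mutant embryos and 34.0 FPKM in wildtype ones, a log2 ratio of -3.94, at a locus on chromosome 17 (71344415 to 71475343 of mm10). The mesoderm that the set belongs to was present in both genotypes by its defining markers. *T*, the tail bud and notochord factor, was at 3.23 FPKM in mutant embryos and 7.75 FPKM in wildtype ones. *Msgn1*, a factor specific to presomitic mesoderm, was at 2.88 and 7.57 FPKM. In whole-embryo RNA, fewer presomitic cells and less RNA per presomitic cell cannot be told apart. No somite counts were used here, so a difference in stage between the pooled embryos was not tested. The same holds for the phase of the clock at collection.

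The 10 genes fell into a weakly expressed part that was lower in the mutant and a more strongly expressed part that was equal or higher. *Hes7*, *Mesp1*, *Mesp2*, *Ripply2* and *Dkk1* were all lower, with log2 ratios from -1.88 to -0.48. Their wildtype levels ranged from 0.333 to 4.19 FPKM. *Lfng*, *Dll1*, *Dll3*, *Nrarp* and *Axin2* had log2 ratios from 0.04 to 0.50 and wildtype levels from 7.50 to 21.8 FPKM. The pair of level ranges does not overlap, so direction and level went together in this set. Summed over the first 5 genes, the level was 4.39 FPKM in mutant embryos and 8.88 FPKM in wildtype ones, 2.02 times higher in wildtype. Summed over the other 5 it was 86.9 FPKM in mutant embryos and 73.2 FPKM in wildtype ones, 1.19 times higher in mutant. The groups follow the direction of the ratios, so sums that differ in opposite directions are given by the grouping. The first sum is mostly *Dkk1* and *Hes7*, at 4.19 and 2.83 FPKM in wildtype embryos.

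**Figure D1:**
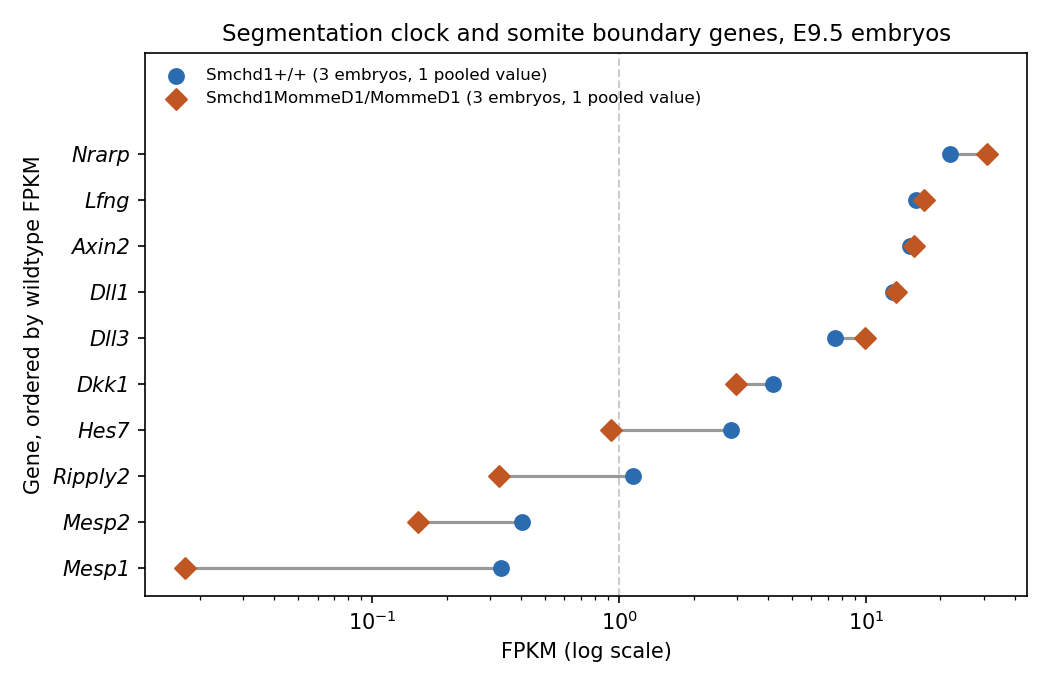
FPKM (log scale, horizontal axis) of the 10 genes, ordered by wildtype level, with circles for *Smchd1*+/+ and diamonds for *Smchd1*MommeD1/MommeD1 embryos, each a single value pooled over 3 embryos with no error bar, and a dashed line at 1 FPKM. The diamonds lie left of the circles for the 5 lowest genes, from *Mesp1* (0.0174 against 0.333 FPKM) to *Dkk1* (2.97 against 4.19 FPKM), and at or right of them for the 5 highest, up to *Nrarp* (31.0 against 21.8 FPKM).

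*Hes7*, the bHLH repressor whose loss stops the clock, lies on chromosome 11 of mm10 from 69120453 to 69123259 on the plus strand. It was at 0.922 FPKM in mutant embryos and 2.83 FPKM in wildtype ones, 3.07 times higher in wildtype, with a log2 ratio of -1.52. Among the 2903 loci whose mean level lay within 2-fold of that of *Hes7*, 0.344% had a ratio as low or lower. With 1 FPKM added in place of 0.1 the log2 ratio was -0.99. On the opposite strand the GENCODE annotation places *9130213A22Rik*, whose exons cover 234 of the 1809 exonic bases of *Hes7*. The libraries did not keep the strand, so reads from that stretch cannot be assigned to either gene.

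*Lfng*, a glycosyltransferase that modifies Notch receptors and is turned on and off by the same clock, lies on chromosome 5 from 140607341 to 140615545 on the plus strand. It was at 17.2 FPKM in mutant embryos and 15.9 FPKM in wildtype ones, a log2 ratio of 0.12. Unlike *Hes7*, it was thus slightly higher in the mutant. Of the 4542 loci with a mean within 2-fold of that of *Lfng*, 20.3% had a ratio as high or higher. The level of *Lfng* over that of *Hes7* was 18.7 in mutant and 5.62 in wildtype embryos, so these clock genes differed by 1.63 in their log2 ratios with 0.1 FPKM added. The Fringe paralogues of *Lfng* that are not clock genes were at 12.8 and 9.47 FPKM for *Mfng*, with a log2 ratio of 0.43, and at 8.93 and 8.57 FPKM for *Rfng*, with a log2 ratio of 0.06.

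Notch turns on clock genes through the DNA-binding protein RBPJ, and T-box factors turn on genes of the front presomitic mesoderm, so the 250 bases before each RefSeq start were searched on both strands. All 10 genes had such a window among 32851 of GRCm38.p6, the assembly behind mm10. In GENCODE *Hes7*, *Lfng*, *Dll1*, *Dll3*, *Mesp1* and *Dkk1* start further upstream, so part or all of their windows lies within the annotated gene. The letters TGGGAA, a core that RBPJ binds, were found in 2 of 10 windows, those of *Hes7* and *Lfng*, against 21.6% of all windows. In *Hes7* the match starts 180 bases before the start. The *Lfng* window holds the letters once on each strand, 135 and 108 bases before the start, and is shown for that reason up to where an annotated exon begins, at chr5:140607091-140607319 on the plus strand, with the matches in capitals.
Lfng: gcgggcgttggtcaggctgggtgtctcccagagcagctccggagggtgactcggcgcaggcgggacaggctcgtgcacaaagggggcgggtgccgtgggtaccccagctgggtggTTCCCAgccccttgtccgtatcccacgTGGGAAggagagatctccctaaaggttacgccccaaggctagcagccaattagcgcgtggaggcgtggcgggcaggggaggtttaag
The letters CANNTG, the E-box that bHLH proteins bind, were in 8 of 10 windows against 66.2% of all, and CACNAG, the N-box of Hes repressors, in 4 of 10 against 36.7% of all. The N-box letters were in the windows of *Hes7*, *Lfng*, *Nrarp* and *Dkk1*, of which *Hes7* and *Dkk1* were lower and *Lfng* and *Nrarp* higher in the mutant. GC content of the 10 windows ran from 52.0% to 69.2%, and all but that of *Dll3* lay above the median of 52.4% for all windows. These counts are descriptions of letters in a short window and say nothing of binding.

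The boundary genes had the lowest levels of the set, and all were lower in the mutant. *Mesp1* and *Mesp2*, neighbouring bHLH genes with 17136 bases between their loci on chromosome 7, overlap in function in early mesoderm, while Mesp2 is the boundary factor of the presomitic mesoderm. *Mesp1*, from 79792241 to 79793590 on the minus strand, was at 0.0174 FPKM in mutant embryos and 0.333 FPKM in wildtype ones. Its log2 ratio was -1.88, but -4.26 with nothing added and -0.39 with 1 FPKM added, so its size rests on the added value. The mutant level multiplied by transcript length in kilobases was 0.0222, close to the median of 0.0181 for the 20 lowest values above 0 among 551 single-exon loci, which places *Mesp1* at the bottom of what the table resolves.

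*Mesp2*, from 79810727 to 79813431 on the plus strand, was at 0.153 FPKM in mutant embryos and 0.402 FPKM in wildtype ones, a log2 ratio of -0.99. With 1 FPKM added its log2 ratio was -0.28. *Ripply2*, which encodes a repressor that Mesp2 turns on and that ends the Mesp2 program, lies on chromosome 9 from 87015537 to 87019916 on the plus strand. It was at 0.327 FPKM in mutant embryos and 1.13 FPKM in wildtype ones, a log2 ratio of -1.53, and with 1 FPKM added of -0.69. Of the loci with a mean within 2-fold of theirs, a ratio as low or lower was seen for 0.165% of 1814 loci around *Mesp1*, 2.54% of 2085 around *Mesp2* and 0.547% of 2741 around *Ripply2*. The paralogues *Ripply1*, also used at somite boundaries, and *Ripply3*, a gene of the pharyngeal region, were at 0.589 and 0.936 FPKM and at 3.22 and 4.96 FPKM in mutant and wildtype embryos, with log2 ratios of -0.59 and -0.61.

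The windows before these boundary genes are shown because these 3 genes had the lowest levels of the set. The T-box letters AGGTGT, which can overlap those of an E-box, were found in 1 of 10 windows, that of *Mesp1*, 233 bases before the start and in capitals below, against 11.8% of all windows. Neither they nor the RBPJ letters were in the 250 bases of *Mesp2* or *Ripply2*. The stretches are those free of annotated exons, at chr7:79793789-79793840 on the minus strand for *Mesp1*, chr7:79810477-79810726 on the plus strand for *Mesp2* and chr9:87015287-87015536 on the plus strand for *Ripply2*.
Mesp1: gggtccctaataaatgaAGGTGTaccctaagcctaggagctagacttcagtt
Mesp2: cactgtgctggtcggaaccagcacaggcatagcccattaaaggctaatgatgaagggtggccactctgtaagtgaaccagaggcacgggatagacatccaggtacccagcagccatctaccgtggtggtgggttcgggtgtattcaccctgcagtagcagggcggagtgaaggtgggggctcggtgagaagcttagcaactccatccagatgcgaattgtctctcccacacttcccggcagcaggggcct
Ripply2: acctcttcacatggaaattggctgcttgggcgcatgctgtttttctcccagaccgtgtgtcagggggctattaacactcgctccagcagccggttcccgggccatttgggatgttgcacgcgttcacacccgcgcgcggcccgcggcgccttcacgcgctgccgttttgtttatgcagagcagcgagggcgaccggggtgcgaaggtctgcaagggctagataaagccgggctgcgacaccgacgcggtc

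The Notch ligands of the presomitic mesoderm were not lower in the mutant. *Dll1*, the activating ligand, lies on chromosome 17 from 15367354 to 15375823 on the minus strand and was at 13.2 FPKM in mutant embryos and 12.8 FPKM in wildtype ones, a log2 ratio of 0.04. *Dll3*, a ligand that acts inside the cell and lowers Notch activity, lies on chromosome 7 from 28293555 to 28301785 on the minus strand and was at 9.87 and 7.50 FPKM, a log2 ratio of 0.39. A ratio as high or higher was seen for 37.1% of the 4719 loci with a mean within 2-fold of that of *Dll1*. For *Dll3* the share was 5.39% of 4605 loci. The level of *Dll3* over that of *Dll1* was 0.748 in mutant and 0.585 in wildtype embryos. *Dll4*, the ligand of blood vessels, was at 2.77 and 2.73 FPKM. *Dll1* shares its chromosome with *Smchd1* at a distance of 56.0 Mb, and 867 of its exonic bases are covered by exons of *A930024N18Rik* on the opposite strand, 20.5% of the total.

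*Nrarp*, a target of Notch that in turn limits Notch signaling, had the highest level and the highest ratio of the 10 genes. It lies on chromosome 2 from 25180758 to 25183332 on the plus strand and was at 31.0 FPKM in mutant embryos and 21.8 FPKM in wildtype ones, a log2 ratio of 0.50. Of the 3958 loci with a mean within 2-fold of its own, 1.09% had a ratio as high or higher. The level of *Nrarp* over that of *Hes7*, another gene that Notch turns on in the presomitic mesoderm, was 33.6 in mutant and 7.72 in wildtype embryos, a difference of 2.02 in their log2 ratios with 0.1 FPKM added. Exons of *Gm38287* on the opposite strand cover 2051 of the 2582 exonic bases of *Nrarp*, 79.4%, and since the libraries kept no strand the level may hold reads of both. The window of *Nrarp*, shown for contrast with those of *Hes7* and *Lfng*, is at chr2:25180508-25180757 on the plus strand and holds neither the RBPJ nor the T-box letters.
Nrarp: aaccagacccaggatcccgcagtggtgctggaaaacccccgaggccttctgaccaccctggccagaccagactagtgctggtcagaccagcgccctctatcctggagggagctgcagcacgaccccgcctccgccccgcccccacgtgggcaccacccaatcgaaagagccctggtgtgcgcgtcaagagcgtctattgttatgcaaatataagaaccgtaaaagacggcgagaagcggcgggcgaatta

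Of the Wnt feedback genes, *Axin2* was close to even and *Dkk1* was lower in the mutant. *Axin2*, a scaffold of the complex that degrades beta-catenin, lies on chromosome 11 from 108920349 to 108950781 on the plus strand and was at 15.6 FPKM in mutant embryos and 15.1 FPKM in wildtype ones, a log2 ratio of 0.05. Of the 4602 loci with a mean within 2-fold of that of *Axin2*, 33.5% had a ratio as high or higher. *Gm11670* on the opposite strand covers 3.80% of the exonic bases of *Axin2*. *Dkk1*, a secreted inhibitor of Wnt receptors that is also made in the head and limb buds, lies on chromosome 19 from 30545885 to 30549496 on the minus strand and was at 2.97 and 4.19 FPKM, a log2 ratio of -0.48. Of the 3607 loci with a mean within 2-fold of that of *Dkk1*, 3.77% had a ratio as low or lower. The level of *Axin2* over that of *Dkk1* was 5.26 in mutant and 3.61 in wildtype embryos. The letters CTTTGA, a core of the TCF/LEF factors of Wnt signaling, were in 2 of 10 windows, those of *Mesp1* and *Dkk1*, against 13.8% of all windows, and the *Axin2* window does not hold them. Among relatives outside the clock, *Axin1* was at 20.1 and 21.0 FPKM, a log2 ratio of -0.06, *Dkk2* at 1.65 and 1.40 FPKM, a log2 ratio of 0.23, and *Dkk3* at 3.46 and 3.75 FPKM, a log2 ratio of -0.11. *Dkk4* was at 0.0862 FPKM in mutant embryos and is listed at 0 in wildtype, so its log2 ratio of 0.90 rests on the added value.

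Order by level, read on the FPKM scale, was *Nrarp*, *Lfng*, *Axin2*, *Dll1*, *Dll3*, *Dkk1*, *Hes7*, *Ripply2*, *Mesp2* and *Mesp1* from high to low in both genotypes. With no spread between embryos, neighbours in that order cannot be said to differ, above all *Lfng*, *Axin2* and *Dll1*, which lay between 12.8 and 15.9 FPKM in wildtype.

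The genes were next set against all loci. A filter of a mean FPKM of at least 1 over the genotypes kept 12463 loci and 7 of the 10 genes, leaving out *Mesp1*, *Mesp2* and *Ripply2*. *Hes7* passed through its wildtype level alone, since it was under 1 FPKM in the mutant. Of the 7 genes, 2 were lower in the mutant and 5 higher, where 51.8% of all loci past the filter were lower. At least 2-fold lower was 1 of the 7, *Hes7*, beside 0.514% of all loci, and none was at least 2-fold higher, beside 0.979% of all loci. The median log2 ratio was 0.05 for the 7 genes and -0.01 for all loci past the filter. Since the set was chosen on these values, nothing is read from these counts about the genes.

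Among 3737 loci with a mean from 0.1 to below 1 FPKM, where *Mesp1*, *Mesp2* and *Ripply2* lie, 41.2% were lower in the mutant, 2.25% were at least 2-fold lower and the median log2 ratio was 0.10. All 3 genes were lower, and *Mesp1* and *Ripply2* were at least 2-fold lower on the scale with 0.1 FPKM added. The spread of ratios was wider below 3 FPKM than above it. The central 95% of loci ran from -0.31 to 0.39 at a mean of 10 to 40 FPKM, from -0.50 to 0.69 at 3 to 10 FPKM, from -0.67 to 1.08 at 1 to 3 FPKM, from -0.95 to 1.43 at 0.3 to 1 FPKM and from -0.98 to 1.29 at 0.1 to 0.3 FPKM. *Hes7*, *Ripply2* and *Mesp1* lay below the lower bound for their level and *Nrarp* above the upper one. *Mesp2*, at -0.99 against a bound of -0.98, lay at the edge. Among loci with a mean within 2-fold of its own, 2.54% had a ratio as low or lower. *Lfng*, *Dll1*, *Dll3*, *Axin2* and *Dkk1* lay within the bounds for theirs.

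**Figure D2:**
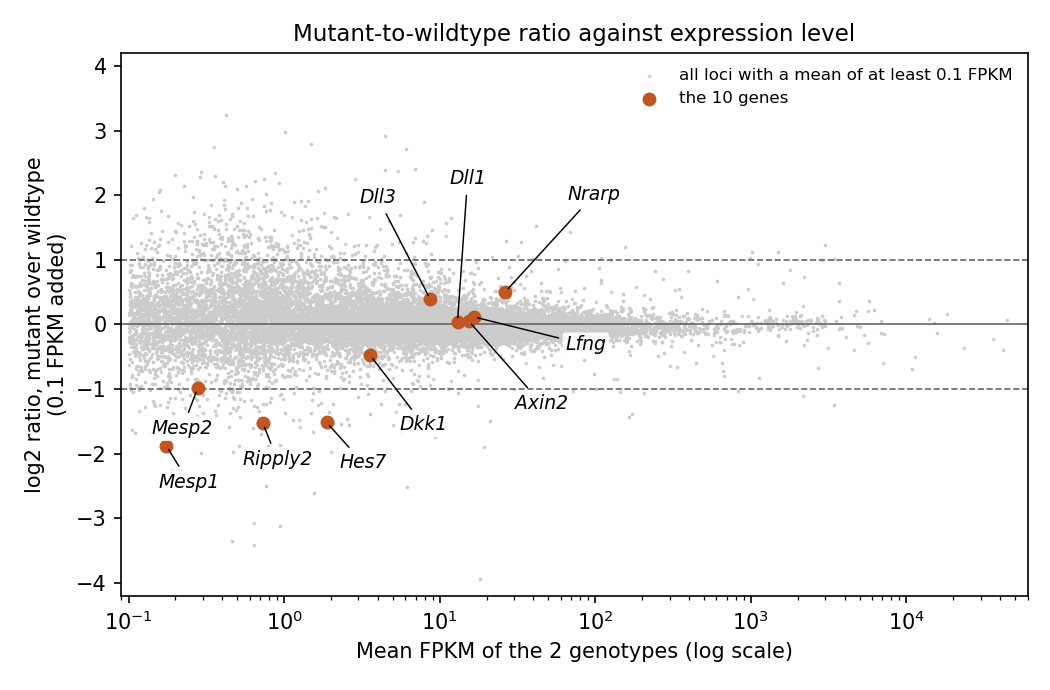
Log2 ratio of mutant over wildtype (0.1 FPKM added) against the mean FPKM of both genotypes (log scale) for the 16200 loci with a mean FPKM of at least 0.1 (grey points) and the 10 genes (named points), with dashed lines at a 2-fold difference. *Hes7* and *Ripply2* at about -1.5 lie near the lower edge of the grey points at their levels and *Nrarp* at 0.50 near the upper edge at its level, and 10 loci beyond 4.2 in size are off the axis.

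The pathways that the clock uses were read from lists of other genes. Of 25 loci past the filter for Notch receptors, other ligands and the processing and nuclear machinery, 10 were lower and 15 higher, none was 2-fold different, and the median log2 ratio was 0.04 with a range from -0.20 to 0.43. *Rbpj*, the DNA-binding partner of Notch, was at 32.8 FPKM in both genotypes. The gamma-secretase subunits *Psenen* and *Aph1a*, which release the active part of Notch, were at 67.2 and 63.8 FPKM and at 63.5 and 61.6 FPKM in mutant and wildtype embryos. The ratios of these machinery genes were close to even. Of 7 other Hes and Hey loci, 3 were lower and 4 higher with a median of 0.06. Among members used in neural tissue, *Hes5* and *Hes6* were at 26.8 and 18.6 FPKM and at 29.3 and 17.9 FPKM, with log2 ratios of 0.52 and 0.71, while *Hes3*, named here after its values were seen, was at 4.35 and 7.14 FPKM, a log2 ratio of -0.70. *Hes1*, which is broadly expressed and also cycles in the presomitic mesoderm, was at 21.8 and 24.4 FPKM, a log2 ratio of -0.17.

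For the Wnt pathway, 12 of 23 loci were lower and 11 higher, with a median of -0.05 and a range from -0.86 to 0.23. *Ctnnb1*, which encodes beta-catenin, was at 421 FPKM in mutant embryos and 418 FPKM in wildtype ones. *Ccnd1*, a cell cycle gene, was at 108 and 96.4 FPKM, and the repressor *Tcf7l1* at 32.8 and 30.2 FPKM. For the FGF pathway, 14 of 18 loci were lower and 4 higher, with a median of -0.10 and a range from -0.70 to 0.09. *Ptpn11*, which passes on receptor signals, was at 41.0 and 42.8 FPKM. *Spred1* and *Dusp6*, feedback inhibitors of the pathway, were at 36.6 and 40.3 FPKM and at 38.6 and 36.6 FPKM. No Wnt or FGF locus past the filter was 2-fold different.

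The factors of the presomitic mesoderm and tail bud were lower as a list. Of 13 loci past the filter, 12 were lower and 1 higher, 6 were at least 2-fold lower and none 2-fold higher, with a median of -0.94 and a range from -1.74 to 0.33. The 6 were *Cdx4* (4.24 and 14.4 FPKM in mutant and wildtype), *Cdx2* (3.22 and 10.1 FPKM), *Nkx1-2*, *Msgn1*, *T* and *Evx1*. Cdx2 and Cdx4 drive axis elongation, and Nkx1-2 marks the progenitors of the tail bud. This wide range holds the log2 ratios of all the 10 genes except *Mesp1*, below it, and *Dll3* and *Nrarp*, above it. Summed over the list, the level was 67.5 FPKM in mutant embryos and 108 FPKM in wildtype ones. The more widely expressed members *Wnt5a* and *Gdf11* were at 17.9 and 21.1 FPKM and at 10.1 and 8.04 FPKM, with log2 ratios of -0.24 and 0.33. This list was also chosen with earlier results known, and its part in the values of *Hes7*, *Mesp2* and *Ripply2* was not tested.

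The next lists cover later steps, from boundary formation to the somite derivatives. Among genes of the front presomitic mesoderm, the boundary and the somite epithelium, 9 of 16 loci were lower and 7 higher, with a median of -0.06. *Cer1*, which encodes a secreted inhibitor made in the newest somite, was the 1 locus at least 2-fold lower, at 0.526 FPKM in mutant embryos and 1.51 FPKM in wildtype ones. *Fn1*, the fibronectin of the matrix between somites, was at 87.0 and 110 FPKM, a log2 ratio of -0.34. The cadherins *Cdh2* and *Cdh11* were at 62.8 and 65.7 FPKM and at 34.2 and 34.1 FPKM. Among factors of the somite derivatives, 2 of 7 loci were lower and 5 higher, with a median of 0.12 and a range from -0.07 to 0.46. The sclerotome factor *Pax1* was at 8.98 and 8.25 FPKM, the dermomyotome factor *Pax3*, also a neural tube gene, at 10.8 and 9.52 FPKM, and *Dmrt2* at 4.35 and 4.40 FPKM.

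**Figure D3:**
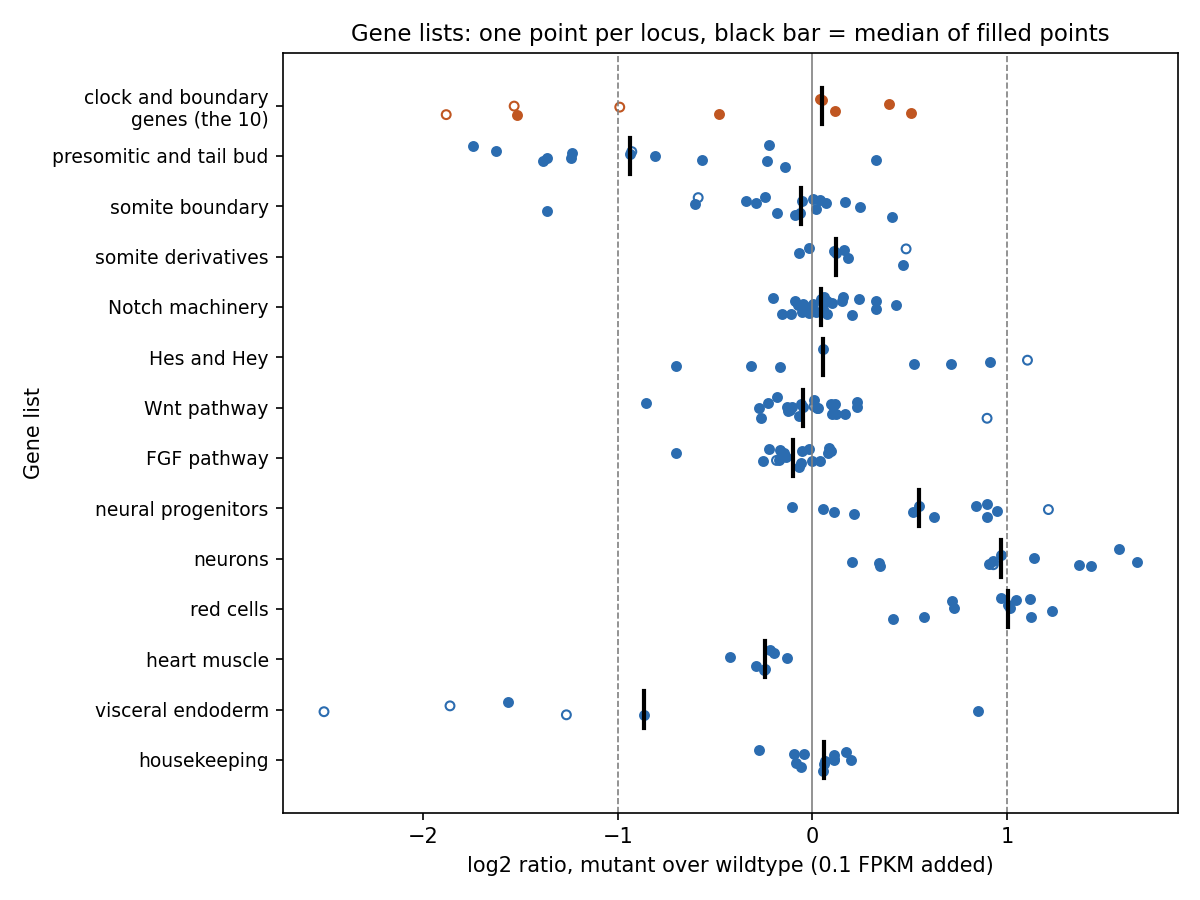
Log2 ratio of mutant over wildtype (0.1 FPKM added) for each locus of the 10 genes and of 13 lists of pathway and cell type genes, with filled points for loci with a mean FPKM of at least 1, open points for the others, a black bar at the median of the filled points and dashed lines at a 2-fold difference. The presomitic and tail bud list has its median at -0.94, the neuron and red cell lists at 0.97 and 1.0, and the Notch, Wnt, FGF and housekeeping lists between -0.10 and 0.06.

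Markers of other tissues differed between the genotypes as well. Of 11 neural progenitor and proneural loci past the filter, 1 was lower and 10 higher with a median of 0.55. The summed level of all 12 loci of the list was 199 FPKM in mutant embryos and 158 FPKM in wildtype ones. *Nes*, *Sox2* and *Sox3* were at 59.1 and 41.2 FPKM, 47.1 and 43.6 FPKM, and 25.1 and 21.6 FPKM. All 11 neuron loci past the filter were higher, 5 of them at least 2-fold, and the 12 loci of the list had a summed level of 242 and 120 FPKM. *Tubb3*, a tubulin of neurons, was at 99.9 and 37.0 FPKM. All 11 red cell loci were higher, 6 of them at least 2-fold, with a summed level of 16186 and 7621 FPKM. All 7 heart loci were lower, with a median of -0.24 and a summed level of 739 and 921 FPKM. Of 3 visceral endoderm loci past the filter, 2 were lower and 1 higher. The visceral endoderm loci that the filter left out had means from 0.1 to below 1 FPKM, where 41.2% of all loci were lower. Without the filter, 5 of 6 were lower and 1 higher, with a summed level of 19.5 and 22.1 FPKM. The higher one, *Afp*, was at 14.7 and 8.10 FPKM and weighs most in that sum, while *Ttr* was at 2.48 and 7.51 FPKM. The 13 housekeeping loci had a median of 0.06 and a range from -0.27 to 0.20. Every marker of these lists was above 0 in both genotypes. *Dll1*, *Dll3* and *Nrarp* are also expressed in neural tissue, and the part of these tissue differences in the values of the 10 genes was not tested.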

How the data were processed

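Values came from 6 male E9.5 embryos, grouped by the genotype in their labels. Per the submitters' processing notes and the study's methods, nondirectional single-end reads of 100 bp were handled with TopHat2 2.0.6, Bowtie2 2.0.2, Cufflinks 2.0.2 and Cuffdiff 2.0.2 on mm10, and the annotation release is not given in the sources used here. The authors deposited 1 FPKM value per genotype and locus, pooled over embryos. Their columns of fold change, test statistic, p-value, q-value and call were not used. Depth is unknown, since the values used give no read counts.

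Log2 ratios were computed from the FPKM values with 0.1 added, for all 24207 loci. Counts and medians used the 12463 loci with a mean FPKM of at least 1 unless another range is stated. Each gene was also set against loci with a mean within 2-fold. No test was possible. The 10 genes and the lists (187 symbols, 1 matched by an older name) were chosen with earlier results of these data known. Named genes were the 10 genes, *Smchd1*, their nearest paralogues and, per list, the 3 loci of highest mean and those at least 2-fold different past the filter, from which the text takes examples. Windows of 250 bases came from RefSeq for GRCm38.p6, and overlapping exons from GENCODE M21. Alternatives were other pseudocounts, filters and scalings. The steps were tested on simulated data. Python 3.11.15, numpy 2.4.6, pandas 2.3.3 and matplotlib 3.10.9 were used.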

Additional observations from a re-analysis of the deposited data

How the results depend on the processing

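Across other pseudocounts and scalings, all 50 values of the 10 genes' log2 ratios kept their direction. This is no check, since a pseudocount cannot change the sign of a ratio. The only downward log2 shift by scaling was -0.016 and the largest upward one 0.043, too small to turn any of the ratios. Of the 50 values, 7 moved by more than 0.1. The ranges were -1.62 to -0.99 for *Hes7*, -4.26 to -0.39 for *Mesp1*, -1.40 to -0.28 for *Mesp2*, -1.80 to -0.69 for *Ripply2*, -0.50 to -0.39 for *Dkk1*, 0.10 to 0.16 for *Lfng*, 0.02 to 0.08 for *Dll1*, 0.35 to 0.43 for *Dll3*, 0.49 to 0.55 for *Nrarp* and 0.03 to 0.09 for *Axin2*. The count of genes lower in the mutant was 5 with no filter and with a mean FPKM of at least 0.1, and 0 with a mean FPKM of at least 5. The count at least 2-fold lower was 3 with no filter and with a mean FPKM of at least 0.1, 0 with a mean FPKM of at least 5 and 0 with a pseudocount of 1 FPKM. Of all loci with a mean from 0.1 to below 1 FPKM, 41.2% were lower and 2.25% at least 2-fold lower. For all loci of at least 1 FPKM the shares were 51.8% and 0.514%. Shares over all loci at the other settings were not computed, and nothing is read from these counts. The median of the genes was -0.22 with no filter and with a mean FPKM of at least 0.1, since these settings bring in *Mesp1*, *Mesp2* and *Ripply2*. Of 104 list medians, 101 kept their direction. The other 3 were the Hes and Hey list at -0.055 and the visceral endoderm list at 0.85 with a mean FPKM of at least 5, and the Wnt list at 0.0080 with no filter, where other loci enter the median. Of the 101, 8 moved by at least 0.1. Among these, the presomitic and tail bud median was -0.57 with a mean FPKM of at least 5 and -0.74 with a pseudocount of 1 FPKM. Leaving out single embryos was not possible with pooled values. No paired analysis was possible because the table gives 1 pooled value per genotype. Depth is unknown, and the low levels of *Mesp1*, *Mesp2* and *Ripply2* limit how well the size of their ratios is known.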
